A study of Mus musculus with 48 samples.

Results

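The clustered protocadherin genes of the mouse were followed across Setd1b conditional knockout (cKO) and control libraries of the hippocampal cornu ammonis (CA). Members were all genes whose symbols name an alpha, beta or gamma protocadherin of the cluster on chromosome 18, which gave 58 gene identifiers of the 48869 in the RNA count tables. The alpha cluster held 14 of them, the beta cluster 22 and the gamma cluster 22. The symbol Pcdha11 stood for 2 identifiers, so the 58 identifiers carried 57 symbols. In GRCm38 the alpha genes lie at chromosome 18, 36930285 to 37188897 (258.6 kb), the beta genes at 37264998 to 37521419 (256.4 kb) and the gamma genes at 37661775 to 37841873 (180.1 kb).

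All groups were C57BL/6J mice aged 4 to 6 months. The Setd1b product is a methyltransferase that acts on lysine 4 of histone H3. RNA came from hippocampal CA neurons (3 libraries labelled cKO, 3 labelled control) or from whole CA tissue (6 and 6), and peak lists for 4 histone marks came from sorted neuronal nuclei (3 or 4 libraries a group). The labels name neither the Cre driver nor the deleted exons and do not say how the neuron RNA was isolated. Nothing says that replicates are separate animals, so p-values measure the spread between these libraries, which may be technical.

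Clustered protocadherins are cell surface adhesion proteins that bind the same isoform on a facing membrane and give neurons a molecular identity used in self-recognition and dendrite patterning. Each alpha and gamma gene has its own first exon with its own promoter, spliced to constant exons shared by the whole cluster, whereas each beta gene encodes its protein in 1 exon of its own. Most promoters are chosen at random in single neurons through CTCF and cohesin loops to distant enhancers. The C-type genes at the ends of the alpha and gamma clusters (Pcdhac1, Pcdhac2, Pcdhgc3, Pcdhgc4 and Pcdhgc5) follow more regular, cell-type-related expression. In bulk tissue a level is an average over cells, and fewer expressing cells cannot be told apart from less RNA per cell.

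Libraries of neuron RNA held 55.7 to 69.1 M (mega) counts each, and those of whole CA RNA held 14.9 to 20.1 M counts. Setd1b itself, counted over the whole gene, was not lower in the libraries labelled cKO. It stood at 47.7 to 65.5 CPM (counts per M counts of normalized library size) in control neuron RNA and 60.1 to 71.6 in cKO. Whole CA RNA held 29.3 to 54.6 CPM in control and 53.1 to 67.9 in cKO. By edgeR its log2 fold change was 0.25 with an SE of 0.13 in neurons (adjusted p = 0.357), against 0.59 with an SE of 0.12 in whole CA (adjusted p = 0.00605). These counts do not show the deletion, and every direction below rests on the labels.

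The main difference between genotypes lay in the gamma cluster, where a run of neighbouring A-type and B-type genes had higher mean levels in the libraries labelled cKO in both materials. In gene order the run went from Pcdhga4 through Pcdhgb2, Pcdhga5, Pcdhga6, Pcdhga7, Pcdhgb4, Pcdhga8, Pcdhgb5, Pcdhga9 and Pcdhgb6 to Pcdhgb7, with Pcdhga10, which had no counts in any library, between the last pair. All 11 measured genes of this run had a positive log2 fold change in both materials, from 0.41 to 0.89 in neurons and from 0.39 to 0.83 in whole CA. The run was delimited after its values were seen, so its counts describe it and no test was made of it. In the main edgeR fits the alpha and beta clusters had no gene past the test in either material. The alpha gene Pcdha7 was called in whole CA RNA in 6 of 23 alternative settings, DESeq2 among them.

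In neuron RNA, 4 of the 56 members tested were called (Benjamini-Hochberg adjusted p below 0.05), all of them gamma genes higher in cKO. Over all 19622 genes tested, 3.07% were called, 0.887% as higher and 2.19% as lower. Per cluster the calls were 0 of 14 alpha, 0 of 22 beta and 4 of 20 gamma genes, and 2, 3 and 12 genes had an unadjusted p under 0.05, beside 17% of all genes. The median log2 fold change was 0.00 for alpha, 0.04 for beta and 0.43 for gamma genes, beside 0.02 for all genes tested.

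Pcdhga6 gave the smallest p among the members in neuron RNA. Its level was 6.79, 6.71 and 6.46 CPM in the control libraries and 10.5, 10.7 and 10.9 CPM in the cKO libraries. The groups did not overlap, and the replicates of each lay close together. The log2 fold change came to 0.68 (edgeR adjusted p = 0.00303, SE 0.10), a 1.61-fold rise. Pcdhga4, the first gene of the run, stood at 4.94, 5.17 and 4.10 CPM in control and at 7.41, 7.40 and 8.80 in cKO. It rose by 0.73 on the log2 scale (edgeR adjusted p = 0.012, SE 0.13), again with no overlap.

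Pcdhga7 stood at 7.22, 5.88 and 4.87 CPM in control neuron RNA and at 8.37, 10.6 and 9.38 in cKO (edgeR adjusted p = 0.0439 for a log2 fold change of 0.66, SE 0.15). Pcdhgb5, a B-type gene, stood at 2.76, 2.36 and 2.25 CPM in control and at 3.17, 4.21 and 4.60 in cKO (edgeR adjusted p = 0.0487 for a change of 0.70, SE 0.16). For both genes the lowest cKO library was above the highest control library. The other 7 genes of the run missed the threshold in neuron RNA. Pcdhgb4, at 2.03, 1.54 and 1.25 CPM in control and 2.40, 2.70 and 3.83 in cKO, had a log2 fold change of 0.89 (edgeR adjusted p = 0.0676, SE 0.22). Pcdhgb2, Pcdhga5, Pcdhga8, Pcdhga9, Pcdhgb6 and Pcdhgb7 lay between 0.41 and 0.68 on the log2 scale.

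All 11 measured genes of the run had groups that did not overlap in neuron RNA, beside 11.4% of all genes tested that were higher in cKO without overlap. The number of members called in neuron RNA depended on single libraries. It fell from 4 to 2 without cKO replicate 1, 2 or 3 or control replicate 2, and to 1 without control replicate 3. Pcdhga6 was called in all 6 fits that left out 1 library. Pcdhga4 was called in 4 of them, all but those without cKO replicate 1 and without control replicate 3. Pcdhgb5 was called in 2, without cKO replicate 1 or control replicate 1, and Pcdhga7 in 1, without control replicate 1.

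**Figure D1:**
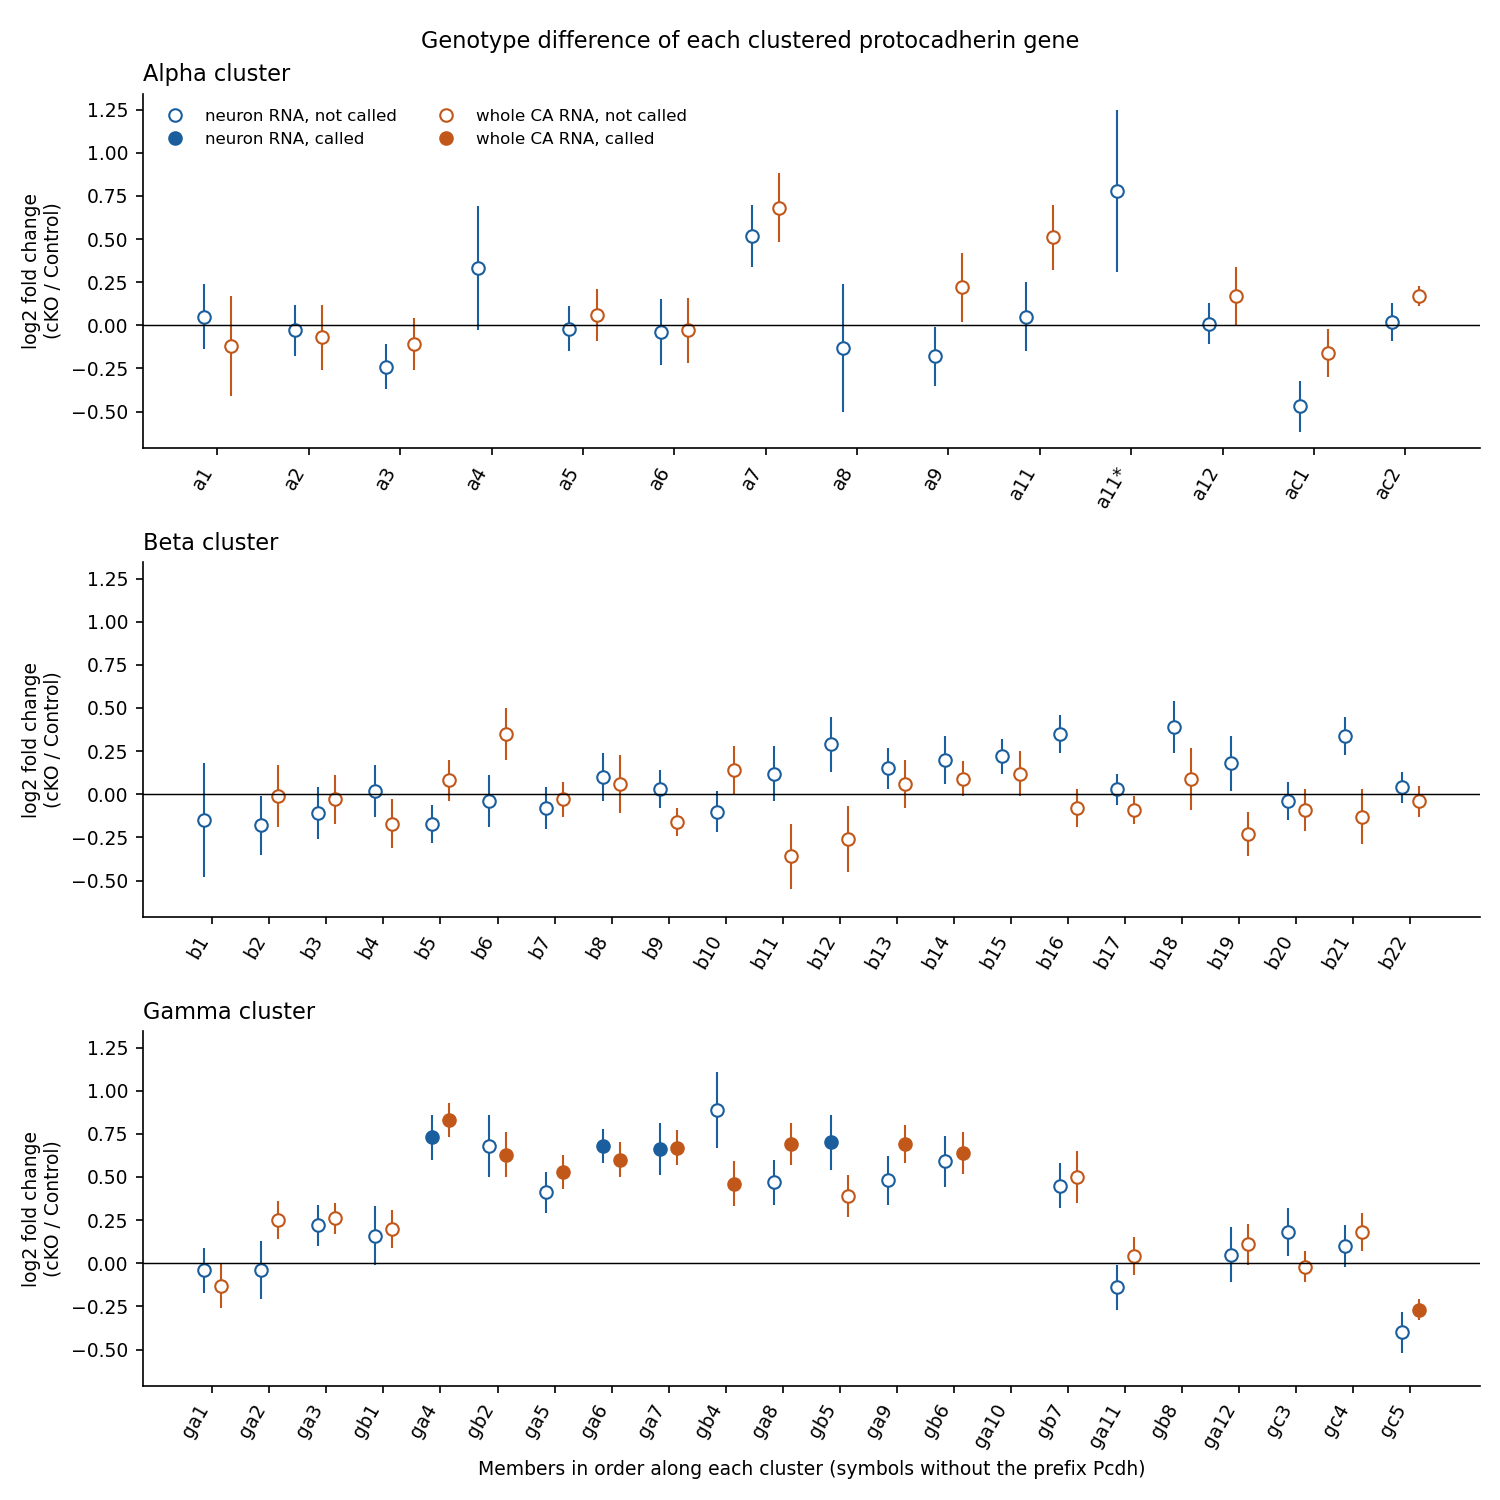
Log2 fold change (cKO over control, vertical axis, bars are SE) of each tested member in order along the alpha, beta and gamma clusters, in neuron RNA (blue) and whole CA RNA (orange), with filled points for adjusted p under 0.05 and a11* for the second identifier of Pcdha11. From Pcdhga4 to Pcdhgb7 all 22 points lie between 0.39 and 0.89, while alpha and beta genes have no filled point.

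Of the 52 members tested in whole CA RNA, 10 were called, 9 of them higher and 1 lower in cKO, all in the gamma cluster. Over all 15362 genes tested, 4.26% were called, 1.41% as higher and 2.84% as lower. The 9 higher genes all belonged to the run from Pcdhga4 to Pcdhgb7, and the lower gene was Pcdhgc5. The alpha cluster gave 0 calls of 11 tested genes and the beta cluster 0 of 21, with 3 and 1 at an unadjusted p under 0.05, beside 15.6% of all genes. The median log2 fold change was 0.06 for alpha, -0.03 for beta and 0.43 for gamma genes, beside 0.00 for all genes tested.

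Pcdhga4 gave the smallest p in whole CA RNA. Its level ran from 6.11 to 8.26 CPM in the 6 control libraries, with a median of 7.97, and from 11.2 to 16.3 in the 6 cKO libraries, with a median of 13.4. The cKO libraries were all above the control libraries, and the log2 fold change came to 0.83 (edgeR adjusted p = 3.43e-05, SE 0.10), or 1.78-fold. Pcdhga7 ran from 9.92 to 15.1 CPM in control (median 12.5) and from 16.9 to 21.5 in cKO (median 20.2), a rise of 0.67 (SE 0.10). Pcdhga9 ran from 6.79 to 9.99 CPM in control (median 8.64) and from 11.3 to 17 in cKO (median 13.9), a rise of 0.69 (SE 0.11).

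Pcdhga6 ran from 11.5 to 16.5 CPM in control whole CA RNA (median 15.3) and from 17.4 to 25.1 in cKO (median 23), a rise of 0.60 (SE 0.10). Pcdhga8 ran from 7.47 to 14.1 CPM in control (median 12.1) and from 16.8 to 21 in cKO (median 18.3), a rise of 0.69 (SE 0.12). Neither gene's groups overlapped. Pcdhgb6 rose by 0.64 (SE 0.12), Pcdhgb2 by 0.63 (SE 0.13) and Pcdhga5 by 0.53 (SE 0.10), each without overlap. Pcdhgb4 rose by 0.46 (edgeR adjusted p = 0.0441, SE 0.13), from 3.96 to 6.00 CPM in control against 5.99 to 8.03 in cKO, with the lowest cKO library just below the highest control library. Its call held in 4 of 12 fits that left out 1 library, and was lost without cKO replicate 1, 3, 4 or 6 or control replicate 3, 4, 5 or 6.

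Both remaining measured genes of the run missed the threshold in whole CA RNA. Pcdhgb5 had a log2 fold change of 0.39 (edgeR adjusted p = 0.0688, SE 0.12) and Pcdhgb7 of 0.50 (SE 0.15, adjusted p = 0.0647). In all, 8 gamma genes had groups that did not overlap and were higher in cKO, beside 1.15% of all genes tested, and 1 was lower without overlap, beside 1.93%. The genes Pcdhga4, Pcdhga6 and Pcdhga7 were called in both materials, 3 of the 4 neuron calls and 3 of the 10 whole CA calls.

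The whole CA libraries came from 2 sequencing lanes recorded with the deposited files, each with 3 libraries per genotype. The 11 genes of the run had log2 fold changes from 0.34 to 0.91 within lane 1 and from 0.38 to 0.92 within lane 2, all positive. The count of members called was 8 within lane 1 and 6 within lane 2. The share of all genes called within each lane is not given here, so these counts do not set the members apart from other genes.

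**Figure D2:**
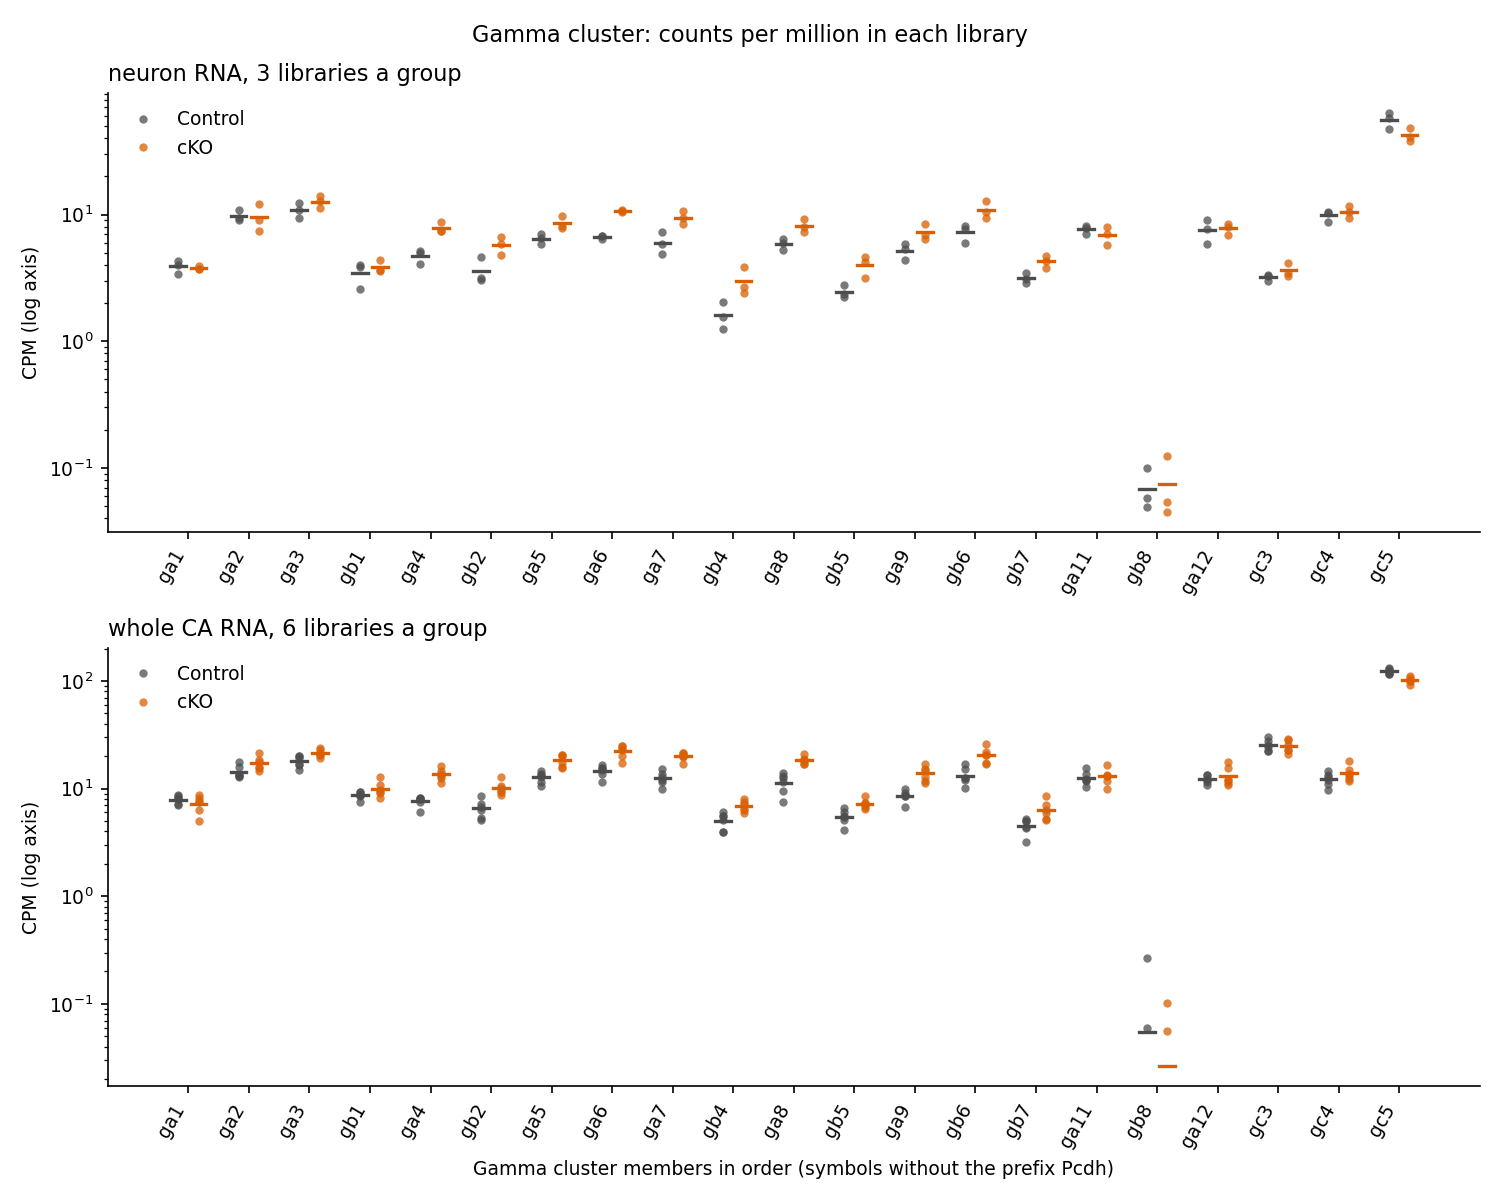
CPM on a log axis for each gamma member in gene order, with 1 point per library and a bar at the group mean, for neuron RNA (3 libraries a group, upper panel) and whole CA RNA (6 a group, lower panel). Pcdhga10, with no counts, and single libraries of Pcdhgb8 at 0 are not drawn. The cKO points of Pcdhga4 and Pcdhga6 lie above all control points in both panels, and those of Pcdhgc5 lie below them in whole CA RNA.

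The A-type and B-type genes on either side of the run had log2 fold changes nearer to 0, a difference that was not tested. The 4 genes before it, Pcdhga1, Pcdhga2, Pcdhga3 and Pcdhgb1, had log2 fold changes from -0.04 to 0.22 in neurons and from -0.13 to 0.26 in whole CA, and edgeR called none of them. After it, Pcdhga11 was at -0.14 in neurons and 0.04 in whole CA, and Pcdhga12 at 0.05 and 0.11. Pcdhgb8, between them in gene order and a transcribed pseudogene in RefSeq, had 0 to 8 counts per library and was not tested. Summed over the 12 A-type genes, the level was 66.6 to 80.9 CPM in control neuron RNA and 85.1 to 101 in cKO, and 124 to 144 in control whole CA RNA and 170 to 190 in cKO. The sum over the 7 B-type genes was 39.7 to 49.2 CPM in control whole CA RNA and 52.5 to 73.3 in cKO. These sums are given as levels only.

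None of the 3 gamma C-type genes was called as higher. Pcdhgc5, whose product is known to interact with GABA-A receptors, was called as lower in whole CA RNA. Across whole CA libraries it ran from 115 to 132 CPM in control (median 121) and from 91.5 to 111 in cKO (median 101), so that every cKO library was below every control library. The log2 fold change came to -0.27 (edgeR adjusted p = 0.00775, SE 0.06). In neuron RNA it stood at 62.8, 58.2 and 47.3 CPM in control and at 40.9, 38.3 and 48.6 in cKO, a log2 fold change of -0.40 (SE 0.12, adjusted p = 0.136) with 1 cKO library inside the control range. Pcdhgc3, an isoform linked to dendrite growth, was at 0.18 (SE 0.14) in neurons and -0.02 (SE 0.09) in whole CA. Pcdhgc4, the isoform needed for the survival of interneurons, was at 0.10 (SE 0.12) and 0.18 (SE 0.11).

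The alpha cluster held 12 alternate identifiers and 2 C-type genes, with log2 fold changes from -0.47 to 0.78 in neurons and from -0.16 to 0.68 in whole CA. Pcdha7 had the largest rise of the alpha genes measured in both materials. It stood at 2.31, 3.15 and 2.15 CPM in control neuron RNA and at 3.39, 3.21 and 4.35 in cKO (edgeR adjusted p = 0.17 for a log2 fold change of 0.52, SE 0.18). Across whole CA libraries it ran from 1.48 to 3.37 CPM in control (median 2.06) and from 2.70 to 4.52 in cKO (median 3.48), with overlap (0.68, SE 0.20, edgeR adjusted p = 0.0708). DESeq2 called it there (adjusted p = 0.0311), and it was called in 6 of 23 alternative settings, among them the one without control replicate 4 (adjusted p = 0.0185).

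Pcdhac1 had the smallest p of the alpha genes in neuron RNA. It stood at 4.56, 4.47 and 3.30 CPM in control and at 2.91, 2.98 and 2.98 in cKO, with no overlap, beside 12.4% of all genes that were lower without overlap (edgeR adjusted p = 0.134 for a log2 fold change of -0.47, SE 0.15). Its log2 fold change in whole CA RNA was -0.16 (SE 0.14, adjusted p = 0.679). Pcdhac2, known for axonal tiling of serotonergic neurons, had the highest count level of the alpha genes. It stood at 44.9, 44.3 and 35.1 CPM in control neuron RNA and at 39.1, 43.3 and 44.0 in cKO, and the groups overlapped. Its whole CA level ran from 41.0 to 48.4 CPM in control (median 44.0) and from 47.3 to 51.7 in cKO (median 50.5), a log2 fold change of 0.17 (SE 0.06, adjusted p = 0.121). The sum over the 14 alpha identifiers was 69.1 to 84.5 CPM in control neuron RNA and 71.3 to 83.2 in cKO.

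The beta genes are short single-exon genes, so their levels could be compared per kb of gene. In control neuron RNA Pcdhb17 was highest at 7.97 ± 0.705 CPM per kb (SD, n = 3), followed by Pcdhb22 at 6.97 ± 0.613 and Pcdhb20 at 5.81 ± 0.624. The ranges of the first pair overlapped, from 7.18 to 8.54 for Pcdhb17 and from 6.30 to 7.50 for Pcdhb22, while Pcdhb20 ran from 5.09 to 6.19, below both. Pcdhb1 was lowest at 0.112 ± 0.0262 CPM per kb, followed by Pcdhb4 at 0.945 ± 0.0779. In control whole CA RNA, Pcdhb9 (4.75 ± 0.427, n = 6), Pcdhb17 (4.35 ± 0.282) and Pcdhb14 (3.90 ± 0.276) led, and Pcdhb1 was again lowest at 0.114 ± 0.0705.

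No beta gene differed between genotypes past the test by edgeR or DESeq2. In neuron RNA the log2 fold changes ran from -0.18 to 0.39, with 14 positive and 8 negative. Pcdhb16 gave the smallest p, at 13.6, 17.4 and 17 CPM in control and 20.3, 21.1 and 19.8 in cKO (edgeR adjusted p = 0.135 for a log2 fold change of 0.35, SE 0.11). The whole CA range was -0.36 to 0.35, with 8 positive and 13 negative. There Pcdhb6 gave the smallest p, from 2.63 to 4.10 CPM in control and 3.24 to 4.99 in cKO (0.35, SE 0.15, adjusted p = 0.246). Pcdhb17 was at 0.03 in neurons and -0.09 in whole CA, and Pcdhb1 at -0.15 in neurons. Summed over the 22 beta genes, the level was 189 to 233 CPM in control neuron RNA and 226 to 242 in cKO, and 147 to 157 in control whole CA RNA and 130 to 164 in cKO.

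The median biological coefficient of variation in neuron RNA was 15% for alpha, 11.7% for beta and 11.9% for gamma genes, beside 11.7% for all genes tested. For whole CA RNA these were 17.5%, 13.2% and 12.3%, beside 10.8%. In counts simulated on these libraries with changed genes among 19622 in neuron RNA, the test recovered 48.0% of 1.5-fold and 81.0% of 2-fold changes. Among 15362 genes in whole CA RNA it recovered 82.0% and 96.0%. All genes were simulated with the same spread, and the changed ones were drawn at random over all levels. These shares are therefore not recovery rates for the members, whose spread and counts differ from gene to gene.

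Members that failed the filter on low counts were few. Pcdhga10 had 0 counts in all 18 RNA libraries, and Pcdhgb8 had 3 to 8 counts per library in neurons and 0 to 4 in whole CA. Another 4 were not tested in whole CA RNA: Pcdha4 with 0 to 2 counts, Pcdha8 with 2 to 16, the second identifier of Pcdha11 with 0 to 3 and Pcdhb1 with 1 to 12. In neuron RNA the second identifier of Pcdha11 stood at 0.184 ± 0.106 CPM (SD, n = 3) in control and at 0.325 ± 0.167 (n = 3) in cKO, with a log2 fold change of 0.78 (SE 0.47). How reads in the shared exons of the alpha and gamma genes, or in overlapping gene models, were assigned is not given in the sources used here, so the counts of these genes may be partial.

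Whether the genotype effect differed between neuron RNA and whole CA RNA was tested as an interaction in 1 fit of all 18 libraries. No member was called of 53 tested by edgeR (0.194% of 17523 genes were called, 0.0285% with a higher effect in neuron RNA), and DESeq2 also called 0. At an unadjusted p under 0.05 there were 4 (Pcdhb12, Pcdhb16, Pcdhb19 and Pcdhb21), or 7.55% of members, beside 7.99% of all genes. The largest of them, Pcdhb12, had a difference of 0.56 (95% interval 0.00 to 1.12, edgeR adjusted p = 0.623). For Pcdhga4 the difference was -0.09 (-0.45 to 0.27), for Pcdhgb4 0.43 (-0.08 to 0.94) and for Pcdhgc5 -0.12 (-0.38 to 0.13). In counts simulated for this test, with the same spread for all 17523 genes, 30% of 1.5-fold and 74.0% of 2-fold differences were recovered.

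The materials themselves differed far more than the genotypes. In control libraries 33 of 53 members tested were called between both materials, 9 higher and 24 lower in neuron RNA, beside 82.8% of all genes (43.1% higher, 39.7% lower). With library size alone in place of normalization factors the split was 16 higher and 20 lower, and the median log2 difference of all genes moved from 0.07 to 0.25. The clusters went different ways. All 20 gamma genes tested were lower in neuron RNA, with a median log2 difference of -1.09, and they stayed 20 of 20 under each alternative tried. Of 21 beta genes, 8 were higher and 2 lower (median 0.17). Of 12 alpha identifiers, 1 was higher and 2 lower (median 0.09).

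Pcdhgc3 had the largest difference of the 53 members tested. Pcdha4, too low in count to be tested there, had log2 differences of 2.62 to 3.61 in the 3 settings that kept it. Pcdhgc3 stood at 3.32, 3.28 and 2.98 CPM in control neuron RNA. It averaged 25.4 ± 2.96 (SD, n = 6) in control whole CA RNA, with no library below 22.5. The log2 difference was -3.17 (edgeR adjusted p = 2.69e-17, SE 0.13), or 8.97-fold lower in neuron RNA. Pcdhgc5 was at -1.30 on the log2 scale (SE 0.09) and Pcdhgc4 at -0.50 (SE 0.13), both lower in neuron RNA. Among the A-type and B-type genes the difference ran from -0.70 for Pcdhgb7 to -1.82 for Pcdhgb4. Pcdhgb1 was at -1.50, Pcdhgb5 at -1.33, Pcdhga6 at -1.31, Pcdhga7 at -1.24 and Pcdhga5 at -1.15.

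Of the beta genes higher in neuron RNA, 7 were among the last 8 of their cluster, from Pcdhb15 to Pcdhb22 without Pcdhb18. Pcdhb20 was higher by 0.96 (SE 0.12), Pcdhb22 by 0.82 (SE 0.10), Pcdhb15 by 0.80 (SE 0.13), Pcdhb17 by 0.70 (SE 0.09), Pcdhb21 by 0.66, Pcdhb19 by 0.57 and Pcdhb16 by 0.33, with Pcdhb7 at 0.25. Pcdhb2 and Pcdhb14 were lower, at -0.61 and -0.37. With library size alone, 12 beta genes were higher and none lower, 4 alpha identifiers were higher and none lower, and the 20 gamma genes were still lower. In the alpha cluster Pcdha3 was higher by 0.49 (SE 0.15), and Pcdhac1 and Pcdhac2 were lower, at -0.35 and -0.28.

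Markers of cell types differed between the materials too. The 8 astrocyte markers had a median log2 difference of -5.89 between control neuron RNA and control whole CA RNA, and the 8 oligodendrocyte markers of -5.16. The 8 pan-neuronal markers were also lower in neuron RNA, with a median of -1.23. Of 6 dentate granule markers 5 were higher in neuron RNA (median 0.95). The part of these cell types in the gamma difference was not tested, and material, isolation, sequencing run and depth cannot be told apart in this comparison.

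**Figure D3:**
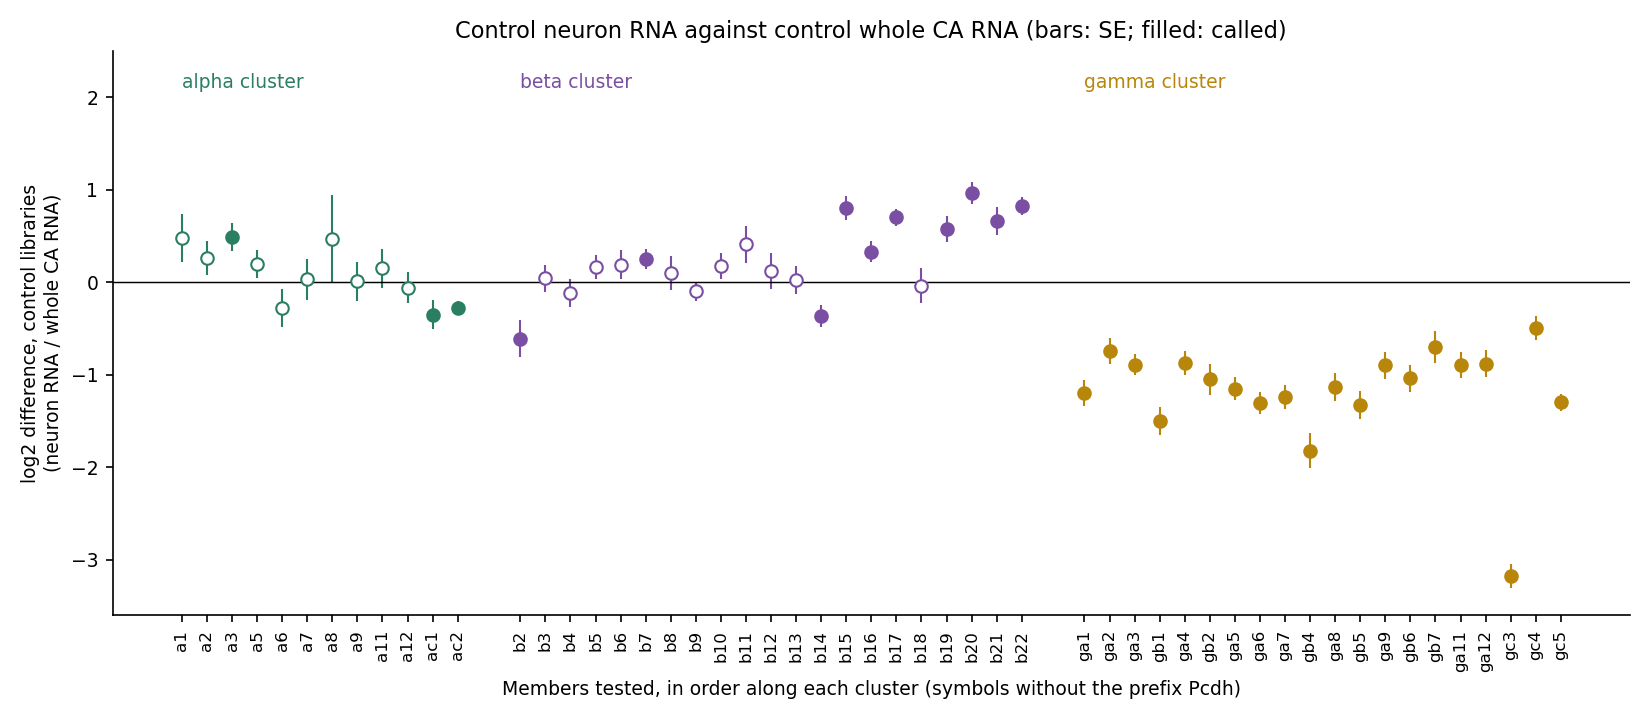
Log2 difference of control neuron RNA over control whole CA RNA for the 53 tested members in gene order, with SE bars and filled points for adjusted p under 0.05. All 20 gamma points lie below 0, down to -3.17 for Pcdhgc3, while beta genes from Pcdhb15 to Pcdhb22 reach 0.96.

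No listed regulator, partner or neighbour of the clusters passed the test, while 2 protocadherins outside the cluster did in whole CA RNA. Over all genes tested, 3.07% were called in neurons and 4.26% in whole CA. With lists this short, 0 calls do not set these genes apart from others. Of 17 listed regulators of the cluster, which include Ctcf, the cohesin subunits Rad21, Smc1a and Smc3, the cohesin loader Nipbl and the silencing factor Smchd1, none was called in either material. Their median log2 fold change was 0.07 in neurons and -0.02 in whole CA, beside 0.02 and 0.00 for all genes. Of 19 partners and effectors, such as the focal adhesion kinases Ptk2 and Ptk2b and members of the WAVE complex, none was called (medians -0.02 and 0.01). The genes listed as neighbours of the clusters gave 0 calls of 14 in neurons (median -0.06) and 0 of 13 in whole CA (median 0.01). Of 12 protocadherins outside the cluster, none was called in neurons, but for whole CA tissue Pcdh20 fell by 0.59 (SE 0.06) and Pcdh17 by 0.40 (SE 0.07) on the log2 scale.

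Single markers of other cell types moved with the genotype labels. Of the fibroblast and meningeal markers, the summed level was 46.3 to 57.8 CPM in control neuron RNA and 14.2 to 16.5 in cKO, and 65.6 to 102 and 27.7 to 34.6 in whole CA RNA. Most of that sum was Dcn, which fell by 1.92 and 2.25 on the log2 scale. Ogn fell in neuron RNA (-3.45) and was not called in whole CA RNA (-0.3). The other 4 tested in neuron RNA did not pass, with Lum at -0.33, Col1a1 at -0.59, Col1a2 at 0.45 and Col3a1 at 0.02. The choroid plexus markers summed to 27.5 to 29.9 CPM in control neuron RNA and 13.6 to 15.4 in cKO, nearly all of it Kl (means of 27.6 and 13.1 CPM), while Ttr and Folr1 lay near 0. Of 6 dentate granule markers, 3 were lower in neurons (224 to 246 and 168 to 211 CPM) and 1 in whole CA. Of 8 CA2 and CA3 markers, 2 were lower in neurons and 5 in whole CA (823 to 878 and 687 to 726 CPM). Of 6 CA1 markers 1 was lower in each material, Wfs1 (summed level in neurons 798 to 842 and 694 to 753 CPM). The 8 microglia markers in whole CA RNA were all negative, with 1 called (311 to 381 and 278 to 309 CPM). Of 8 astrocyte markers 1 was lower in neurons (54.3 to 68.2 and 48.8 to 53.4 CPM) and 1, Aqp4, in whole CA (-0.38). Of 8 pan-neuronal markers Map2 was lower in whole CA (-0.32), where 4 of the 8 were positive. Kdr, an endothelial marker, was lower in both materials (-0.51 in neurons and -0.40 in whole CA). No marker of these lists was at 0 in all libraries of a material, and their part in the gamma result was not tested.

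The promoters of the members carried H3K4me3, the mark of active and poised promoters that SETD1B can deposit, in nearly every library of sorted neuronal nuclei. Peak coverage was measured as the bp of a 2000 bp window, centred on the annotated start of the gene, that lay under a peak. All 13 alpha promoters had a peak in all 8 libraries. In the beta cluster 20 of 22 promoters had one in every control library and 21 in every cKO library, and in the gamma cluster 21 and 22 of 22. Of promoters outside the cluster, 51.1% to 51.7% had an H3K4me3 peak per control library and 50.9% to 52.3% per cKO library. The C-type promoters had the widest coverage, with 1433 ± 59.3 bp at Pcdhac1, 1668 ± 17.9 at Pcdhac2, 1722 ± 62.7 at Pcdhgc3, 1847 ± 71.9 at Pcdhgc4 and 1761 ± 145 at Pcdhgc5 (SD, n = 4 control libraries).

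No member's H3K4me3 coverage was called as changed between genotypes. The test with limma called 0 of 57 member promoters, beside 1.55% of 17199 promoters tested (0.256% longer, 1.30% shorter), and 2 of the 57 had an unadjusted p under 0.05, beside 11.3% of all promoters. Across the run from Pcdhga4 to Pcdhgb7, the summed coverage over its 12 promoters was 8.36 to 8.95 kb in control and 8.07 to 9.93 kb in cKO, so the groups overlapped. Pcdhga6 had 928 ± 47.0 bp in control and 920 ± 116 bp in cKO (SD, n = 4 each). The median log2 difference was 0.00 for alpha, -0.02 for beta and 0.03 for gamma promoters.

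Pcdhga11, just after the run, had the smallest p and is named here after its values were seen. Its coverage was 1153 ± 33.2 bp in control and 1014 ± 36.8 in cKO (SD, n = 4 each), and the groups did not overlap, beside 4.98% of all promoters that were shorter and 2.04% that were longer without overlap. The log2 difference was -0.17 (limma adjusted p = 0.0545). With a window of 2000 bp on each side 4 member promoters were called as shorter, Pcdha5, Pcdha12, Pcdhga11 and Pcdhga12, together with 2666 promoters of all genes.

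**Figure D4:**
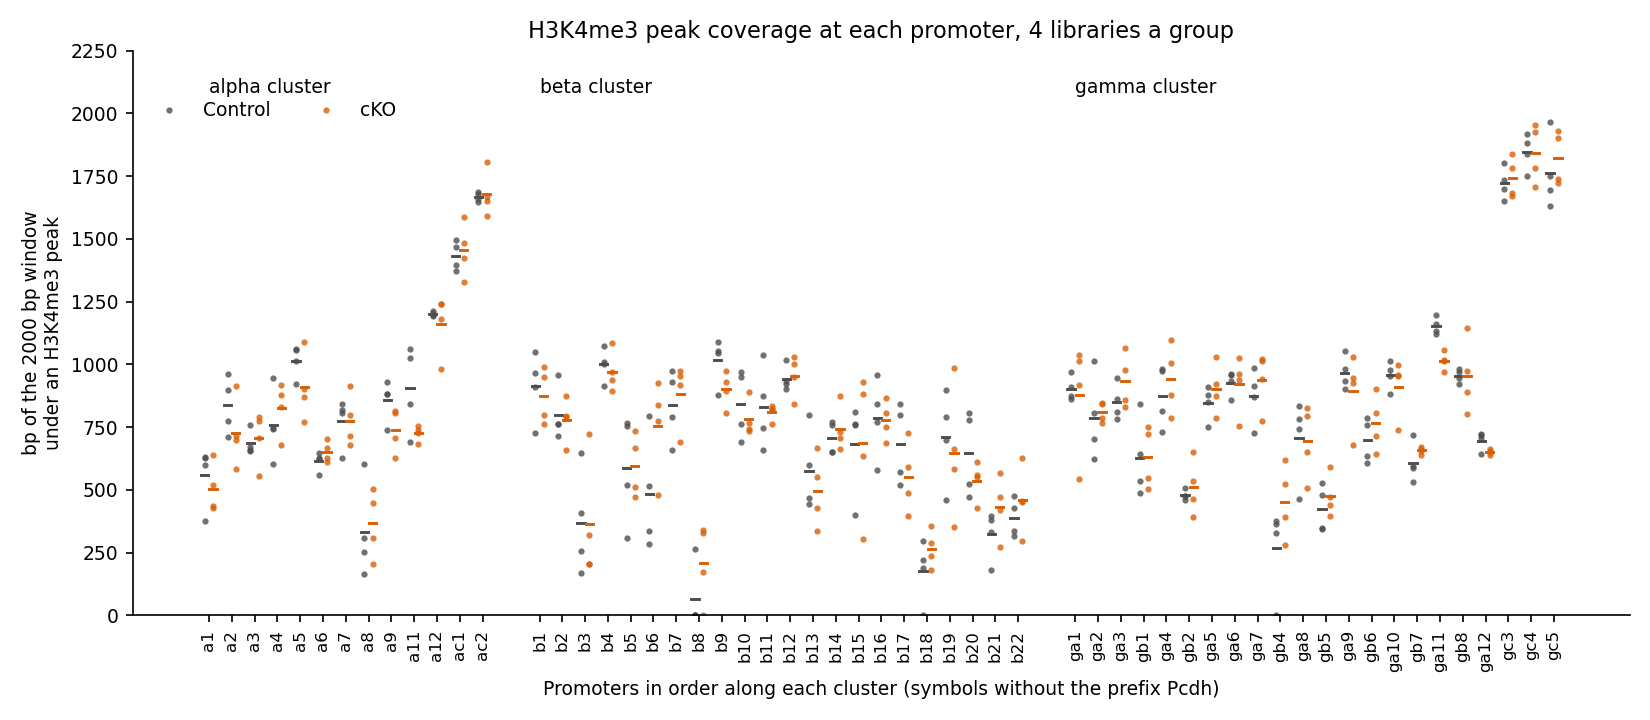
The bp under an H3K4me3 peak in the 2000 bp window at each member promoter in gene order, with 1 point per library (4 control, 4 cKO) and a bar at the group mean. The C-type promoters at the ends of the alpha and gamma clusters stand highest, up to a control mean of 1847 bp, and control and cKO points overlap at all promoters but Pcdhga11.

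The other marks set the clusters apart. In the beta cluster H3K27ac and H3K9ac, the acetylation marks of active promoters and enhancers, gave a peak at 0 to 2 of 22 promoters per library, and H3K4me1 at 0 or 1. At the C-type promoters Pcdhac1, Pcdhac2, Pcdhgc3, Pcdhgc4 and Pcdhgc5 all 3 marks gave a peak in every library. Of the 13 alpha promoters 6 to 11 had an H3K27ac peak per control library and 6 to 9 per cKO library, and 6 to 9 and 7 to 11 had an H3K9ac peak. At promoters of genes outside the cluster, 49.4% to 54.7% had an H3K27ac peak per control library and 49.1% to 50.9% per cKO library. For H3K4me1 these shares were 58.7% to 61.1% and 59.6% to 62.5%.

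At the promoters of the gamma run, H3K9ac peaks were counted at more promoters in each cKO library than in any control library. Of its 12 promoters, 3, 2, 3 and 2 had an H3K9ac peak in the 4 control libraries and 6, 4 and 7 in the 3 cKO libraries, so the groups did not overlap. The share of other promoters with such shifts is not given here, so these counts do not set the run apart from them. The covered length there was 0.425 to 0.827 kb in control and 1.77 to 2.33 kb in cKO. For H3K27ac the numbers were 5, 1 and 0 in the 3 control libraries and 5, 7, 6 and 6 in the 4 cKO libraries, so the groups met at 5.

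The peaks were not spread evenly over the run. Pcdhga6 had an H3K9ac peak in 0 of 4 control and 3 of 3 cKO libraries, and an H3K27ac peak in 1 of 3 and 3 of 4. Pcdhga9 had an H3K27ac peak in 0 of 3 control and 4 of 4 cKO libraries, and an H3K9ac peak in 2 of 4 and 3 of 3. Pcdhga8 had an H3K27ac peak in 0 of 3 and 3 of 4, and Pcdhga5 an H3K9ac peak in 0 of 4 and 2 of 3. Pcdhga4 had an H3K9ac peak in 4 of 4 control and 3 of 3 cKO libraries. Pcdhga7, called in both RNA materials, had no H3K9ac peak in any library and an H3K27ac peak in 0 of 3 control and 1 of 4 cKO libraries. Pcdhgb2, Pcdhgb4 and Pcdhgb5 had neither acetylation peak in any library, though Pcdhgb2 and Pcdhgb4 rose in whole CA RNA and Pcdhgb5 in neuron RNA. Shifts were also seen outside the run, in both directions. Pcdha11 had an H3K27ac peak in 1 of 3 control and 4 of 4 cKO libraries, and Pcdhb9 an H3K9ac peak in 3 of 4 and 0 of 3.

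Of the 4 promoters before the run, 0 to 2 per control library and 0 or 1 per cKO library had a peak of a given acetylation mark. After it, Pcdhga11, Pcdhgb8 and Pcdhga12 had an H3K9ac peak in every library. The share of promoters outside the cluster with an H3K9ac peak was 51.8% to 52.5% per control library and 51.4% to 53.4% per cKO library. The promoters of the run were grouped after the RNA values were seen, so these peak counts are a description without a test. The file headers gave the same input total for all peak lists of a genotype, 28.8 M tags for control and 31.3 M tags for cKO. Input and genotype therefore cannot be told apart.

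**Figure D5:**
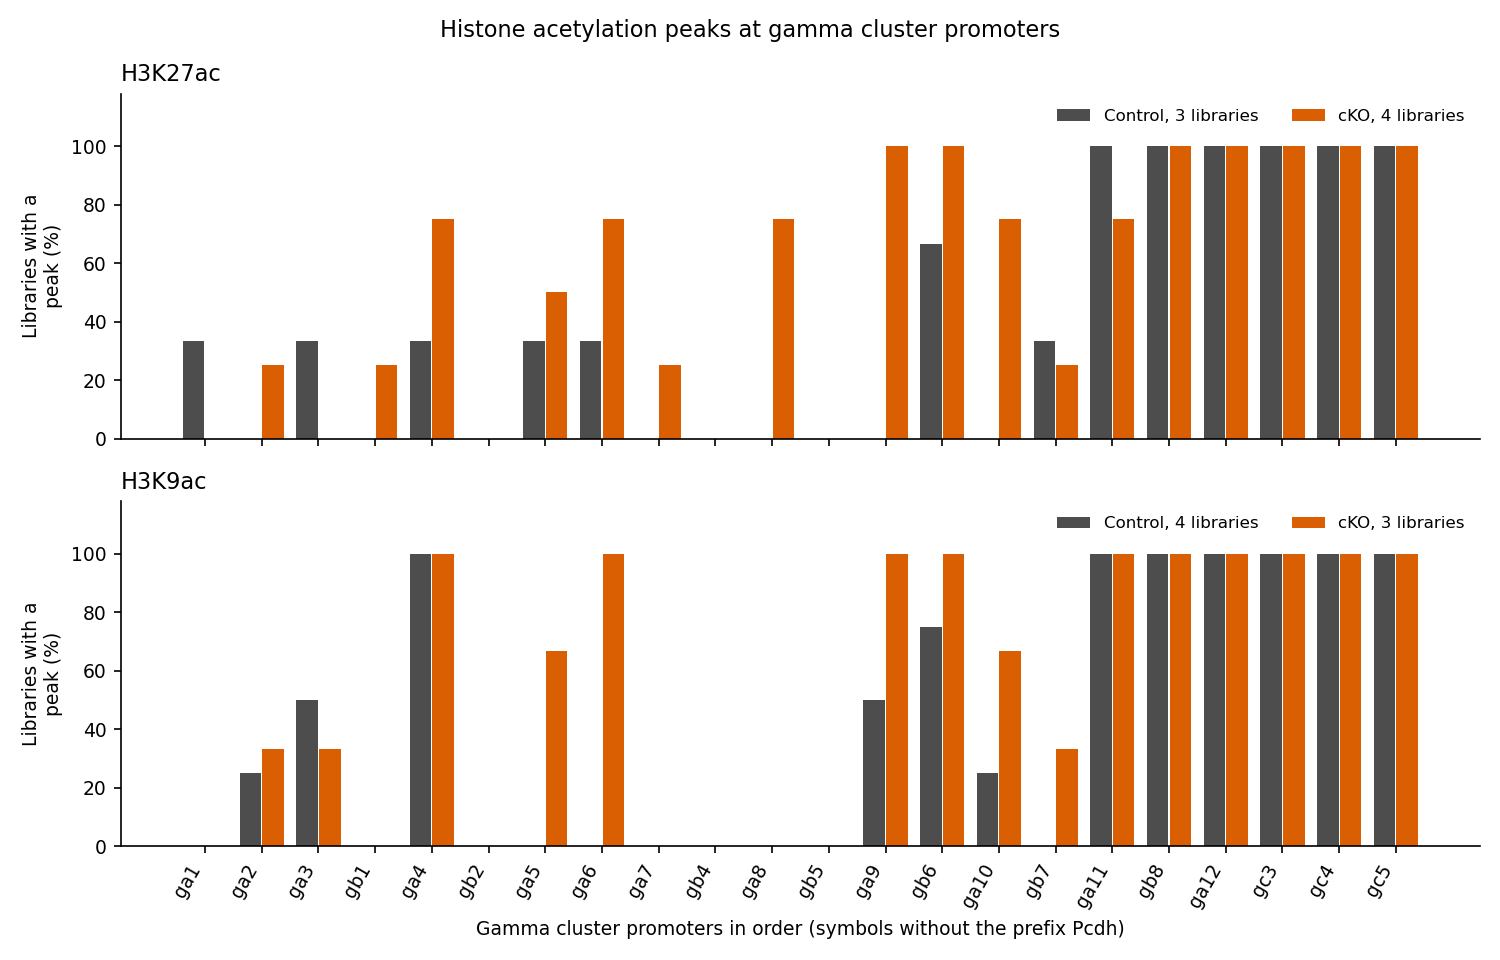
Percent of libraries with an H3K27ac peak (upper panel, 3 control and 4 cKO libraries) or an H3K9ac peak (lower panel, 4 control and 3 cKO libraries) in the 2000 bp window at each gamma promoter in gene order. From Pcdhgb8 to Pcdhgc5 every library has both peaks, and the bars of Pcdhga6 and Pcdhga9 are higher for cKO in both panels.

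The member with no counts and the member with almost none still had marked promoters. Pcdhga10, with 0 counts in 18 RNA libraries, had an H3K4me3 peak in every library (956 ± 54.1 bp in control, SD, n = 4) and an H3K27ac peak in 0 of 3 control and 3 of 4 cKO libraries. Pcdhgb8 is annotated in RefSeq as a transcribed pseudogene. With at most 8 counts, it had H3K4me3 over 955 ± 26.4 bp in control and both acetylation marks in every library. Whether their reads were assigned to an overlapping gene model was not tested.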

How the data were processed

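The RNA values are whole-number counts per Ensembl gene as deposited by the authors, 1 file per library. The counting tool, its treatment of shared exons and the strand setting are not given in the sources used here. Symbols matched 99.3% of neuron and 98.9% of whole CA identifiers, and 5 rows naming no gene held 0 counts and were left out. edgeR 4.0.16 (R 4.3.3) was run on all genes with TMM factors, filterByExpr, a robust quasi-likelihood fit and Benjamini-Hochberg adjustment, separately for neuron RNA and whole CA RNA. The interaction and the control contrast came from 1 fit of all 18 libraries. CPM are TMM-normalized within a material. A call is an adjusted p under 0.05.

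The peak lists were deposited with peak lengths and −log10 q-values, and peaks were called per library with MACS 2.1.0.20140616 (2.1.1.20160309 for H3K4me3) at a q-value cutoff of 0.1, per the file headers. The submitters' processing notes name mm10 and GRCm38. Coverage in windows of 1000 bp on each side of RefSeq starts (GRCm38.p6) was tested with limma 3.58.1 on log2(bp + 100), over promoters with an H3K4me3 peak in at least 3 libraries. The 32851 windows of other genes came from a promoter table without chromosome 18. This number counts windows and not genes. A gene with several starts may therefore be counted repeatedly in the shares of all promoters.

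Members and lists were chosen with earlier results of these data known. Named members were those called, up to 8 per comparison by smallest p, the C-types, the highest and lowest level and smallest p per cluster, and those failing the filter; of listed genes, those called, up to 4. Whether replicate numbers pair the samples is not known, and the main fits did not use them. Deviations of same-numbered control and cKO libraries correlated from -0.168 to 0.383 in neuron RNA and from -0.07 to 0.25 in whole CA RNA. With so few libraries a group these values cannot decide it. The tests were run on simulated data with known changes. DESeq2 1.42.0 and the other alternatives are described at the end.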

Additional observations from a re-analysis of the deposited data

Results flagged for a closer look

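Of 86 groups of libraries checked, 3 held a sample far from the others, where chance flags about 1 in 20 groups. The second identifier of Pcdha11 stood at 0.176 CPM in cKO replicate 1 of whole CA RNA and at 0 to 0.0514 CPM in the others, a matter of 3 counts against 0 or 1. Pcdhb1 stood at 0.623 CPM in control replicate 3 of whole CA RNA and at 0.177 to 0.297 CPM in the others. The Pcdhgb4 promoter had 0 bp under an H3K4me3 peak in control replicate 4 and 328 to 376 bp in the other 3 control libraries. No cause was tested.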

How the results depend on the processing

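In neuron RNA the 4 calls became 8 with no filter, with DESeq2, at an adjusted p under 0.1 and in the contrast from all 18 libraries, 2 without edgeR's robust option (chosen after seeing the data), 1 with the replicate block, and 1 to 6 when single libraries were left out. The replicate block gave 13 members in whole CA RNA, 0 in the interaction and 0 promoters, and not every library was most like its own number. The block added Pcdha7 (adjusted p = 0.0281), Pcdhgb7 (0.0264) and Pcdhga3 (0.039), a gene just before the gamma run, to the whole CA calls. In whole CA RNA the 10 calls became 13 with DESeq2 and at an adjusted p under 0.1, 12 with no filter, 11 in the contrast from all 18 libraries and 6 within lane 2, and were 9 to 11 when single libraries were left out. The interaction stayed at 0 calls under all alternatives run. The 33 calls between materials ran from 29 to 35 when single libraries were left out. The 0 H3K4me3 promoters became 4 with windows of 2000 bp on each side and 0 to 1 when single libraries were left out, with Pcdhga11 called without cKO replicate 3 and Pcdhga12 without control replicate 1. The genes from Pcdhga4 to Pcdhgb7 kept positive log2 fold changes in all 15 neuron and 23 whole CA alternatives (0.30 to 1.09 and 0.33 to 0.92). Among uncalled values of named members, 3 changed sign and moved by more than the SE of the main fit. Pcdhac2 and Pcdhgb1 did so in neuron RNA without control replicate 3 (-0.09 and -0.03). Their ranges were -0.09 to 0.09 and -0.03 to 0.27 when single libraries were left out. The third was the interaction of Pcdhgb2 within lane 1 (-0.22). Smaller sign changes are not listed. Low counts limit Pcdha4, Pcdha8, Pcdhb1 and Pcdhgb8, and intervals cover the libraries at hand. Shares of all genes called are not given for these RNA settings, so the counts do not show whether members shifted more than other genes. The causes of these shifts were not tested.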
